A study of Mus musculus with 2 samples.

Results

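The genes described here are 4 chemokine ligands, Ccl3, Ccl4, Ccl5 and Xcl1, and 1 chemokine receptor, Xcr1. They were taken by symbol and are 5 of the 55357 genes listed in both deposited matrices. The matrices come from droplet single-cell RNA sequencing of mouse liver, with 1 library per group. The first group received carbon tetrachloride (CCl4), a hepatotoxin that scars the liver, and the second received CCl4 plus IPA (indole propionic acid), which gut bacteria form from tryptophan. The latter is called the IPA library from here on. Both groups carry the CCl4 injury, and a liver without CCl4 was not analysed here. Strain, sex, age, doses, times and the number of animals behind each library are not given in the sources used here. There are no replicates, so each comparison sets these 2 libraries side by side and carries no replicate error. All intervals are 95% exact intervals that cover counting error only.

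CCL3, CCL4 and CCL5 are CC chemokines, small secreted proteins that draw leukocytes to a site of injury. They act through CC chemokine receptors on T cells, natural killer (NK) cells and macrophages, and CCL3 and CCL5 act through CCR1 among others. XCL1 is a C chemokine of NK cells, type 1 innate lymphoid cells (ILC1) and CD8 T cells, and its receptor XCR1 is found on type 1 conventional dendritic cells (cDC1), which cross-present antigen to CD8 T cells. Mouse liver holds circulating NK cells beside resident ILC1, and both belong to the innate lymphocytes that carry NK receptors.

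Ccl3 and Ccl4 are neighbours on mouse chromosome 11 in the RefSeq annotation, with Ccl6 before Ccl3 and no coding gene between the pair. Ccl5 lies on the same chromosome, next to Ccl9. The files list the members as ENSMUSG00000000982 (Ccl3), ENSMUSG00000018930 (Ccl4), ENSMUSG00000035042 (Ccl5), ENSMUSG00000026573 (Xcl1) and ENSMUSG00000060509 (Xcr1). Xcl1 is on chromosome 1, and Xcr1 on chromosome 9 between the chemokine receptor genes Cxcr6 and Ccr1. RefSeq promoter windows (build GRCm38.p6, 250 bases before to 50 after the start) were matched for 3 of the 5 members, Ccl3, Xcl1 and Xcr1. The 250 bases before the start are shown for Ccl3, a gene read in both myeloid cells and lymphocytes here, and for Xcl1, read mainly in lymphocytes, at chr11:83649379-83649628 and chr1:164935523-164935772, both on the minus strand and written 5′ to 3′ along the gene. Capitals mark a match to the core of the NFAT motif.
Ccl3: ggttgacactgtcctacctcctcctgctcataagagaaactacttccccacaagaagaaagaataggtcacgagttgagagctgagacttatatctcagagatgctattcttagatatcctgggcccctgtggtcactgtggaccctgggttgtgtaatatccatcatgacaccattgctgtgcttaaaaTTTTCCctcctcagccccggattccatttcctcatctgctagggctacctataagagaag
Xcl1: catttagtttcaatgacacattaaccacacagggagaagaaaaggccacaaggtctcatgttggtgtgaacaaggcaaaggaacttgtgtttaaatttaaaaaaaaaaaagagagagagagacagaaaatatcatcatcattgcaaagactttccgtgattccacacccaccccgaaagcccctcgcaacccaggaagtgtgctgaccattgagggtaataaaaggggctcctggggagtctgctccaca
Both strands of the windows were searched for an AP-1 motif (TGANTCA), an NFAT core (GGAAAA) and an NF-kB type motif (GGGA and CC with 4 free bases between them). The only match among the 3 members, so that none overlapped another, was the NFAT core of Ccl3, on the opposite strand as TTTTCC, from base -60 to base -55 relative to the start. Of all 32851 windows, 7.81% held the AP-1 letters, 23.4% the NFAT core and 20.7% the NF-kB type letters. A match is a description of letters in the window, and the other windows' lack of one says nothing of the factors.

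Cells were assigned to gates by unique molecular identifiers (UMIs, each the count of 1 captured RNA molecule) of marker genes, with no member gene among the markers. Of 10427 and 10471 barcodes, 10016 CCl4 and 10128 IPA cells were analysed, holding 42891409 and 35902750 UMIs, and 20 barcodes occurred in both libraries. The gates held 312 CCl4 and 497 IPA cells for NK, 156 and 466 for ILC1, 2462 and 3125 for T cells, 823 and 1029 for neutrophils and 320 and 223 for mononuclear phagocytes. Levels are CPM, UMIs per 1000000 UMIs of a gate. Since the assay tags the 3′ end of each transcript, they are not divided by length. Markers kept out of the gating matched the names of the NK and ILC1 gates. The 6 NK markers summed to 12866 and 12695 CPM in the NK gate and to 904 and 816 CPM in the ILC1 gate. The 5 ILC1 markers summed to 120 and 181 CPM in the NK gate and to 1713 and 1593 CPM in the ILC1 gate. NK and ILC1 are a continuum under this rule, as 47 of 312 and 65 of 497 NK cells and 33 of 156 and 105 of 466 ILC1 cells lay 1 UMI from the dividing line. Cells that met panels of several lineages were left ungated, 1108 and 620 cells, of which 469 and 174 met the innate and a dendritic panel. The gates as a whole also shifted, as the median log2 ratio (IPA over CCl4) of all genes with at least 20 UMIs was 0.19 in NK, 0.23 in ILC1, 0.29 in T, 0.18 in neutrophil, 0.17 in phagocyte and 0.19 in plasmacytoid dendritic cell (pDC) gates. A member's ratio is to be read against that median.

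Ccl5 was the most abundant of the 5 genes in NK, ILC1 and T cells and stood near the B cell level in neutrophils, phagocytes and pDC. In the NK gate it measured 15595 CPM in the CCl4 library (18176 UMIs, 15369 to 15824) and 16012 CPM in the IPA library (25813 UMIs, 15817 to 16208), a ratio of 1.03 (1.01 to 1.05). In the T gate it measured 8788 and 8251 CPM, a ratio of 0.939 (0.930 to 0.947). Both ratios lie below that of the median gene of their gate, and in NK the log2 ratio of 0.04 turned to -0.16 once scaled by that median. The ILC1 gate held 5087 CPM (3947 UMIs) and 6980 CPM (12610 UMIs), a ratio of 1.37 (1.32 to 1.42). The gap between NK and ILC1 was therefore wide in both libraries and narrower in the IPA library.

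Among T cells Ccl5 followed memory. CD8 cells with the larger sum of memory markers held 14576 and 13363 CPM, and NKT-like cells, which carry CD3 together with NK receptors, 13894 and 13437 CPM. CD4 cells held 1499 and 1562 CPM, and CD8 cells with the larger sum of naive markers 354 and 633 CPM (344 and 639 UMIs, ratio 1.79, 1.57 to 2.04). The memory panel contains Nkg7, one of the genes whose pattern was most like that of Ccl5, so the order of the CD8 gates is partly given by the gating. Neutrophils held 106 and 112 CPM, pDC 71.1 and 83.4 CPM and phagocytes 45.3 and 71.1 CPM. B cells held 93.0 and 100.5 CPM and are taken here as the level free RNA gives for Ccl5, which was not tested. The phagocyte values lay below those of B cells, so they are read as background. Mature dendritic cells, 5 and 3 cells, held 162 and 9 UMIs of Ccl5 (7942 and 1945 CPM), too few cells for a comparison. The neutrophil log2 ratio of Ccl5 was 0.08, and 0.54 without a cluster of 553 CCl4 cells and 1 IPA cell (median 1047 UMIs), which put 18 cells into the neutrophil gate, 31 into the T gate and at most 3 into each other main gate.

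Shares of cells were counted after each cell had been thinned to 1000 UMIs, because the libraries and gates differ in depth (median 3371 and 3010 UMIs a cell in NK, 4884 and 3793 in ILC1, 2261 and 1706 in neutrophils, 2778 and 2353 in B cells). Ccl5 was then detected in 97.0% of CCl4 NK cells (287 of 296, 94.3 to 98.6) and 98.7% of IPA NK cells (473 of 479, 97.3 to 99.5). In ILC1 the share was 81.7% (125 of 153, 74.6 to 87.5) and 95.2% (434 of 456, 92.8 to 97.0), and the intervals did not overlap. Without thinning the ILC1 shares were 94.2% and 97.4%. T cells stood at 61.2% and 60.6%, and the background in B cells was 7.30% and 10.1%. A positive NK cell held on average 16.8 and 17.0 thinned UMIs of Ccl5, and a positive ILC1 6.34 and 7.29.

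Ccl3 and Ccl4 were read in lymphocytes and myeloid cells alike. Both were modestly higher in the IPA library in NK, ILC1 and T gates but lower in neutrophils. Scaled by the median gene, Ccl3 stayed slightly higher in NK and T cells and was level within counting error in ILC1. Ccl4, so scaled, was level in NK and T cells and lower in ILC1. Ccl4 measured 5131 CPM (5980 UMIs) and 5922 CPM (9547 UMIs) in NK, a ratio of 1.15 (1.12 to 1.19). In ILC1 it measured 4783 and 5242 CPM (ratio 1.10, 1.05 to 1.14) and in T cells 1228 and 1493 CPM (ratio 1.22, 1.19 to 1.24). When each gate was scaled by its median ratio, the log2 ratios of 0.21, 0.13 and 0.28 became 0.01, -0.10 and 0.00, so Ccl4 was level with the median gene in NK and T cells and its direction turned in ILC1.

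Ccl3 showed the same order of the lymphocyte gates at lower levels. It measured 1127 and 1420.5 CPM in NK (1313 and 2290 UMIs, ratio 1.26, 1.18 to 1.35), 629 and 788 CPM in ILC1 (ratio 1.25, 1.13 to 1.39) and 162 and 211 CPM in T cells (ratio 1.30, 1.23 to 1.39). After scaling by the gate median the log2 ratios were 0.14, 0.09 and 0.10. In ILC1 the unscaled log2 interval (0.18 to 0.48) held the gate median of 0.23. Within T cells the difference lay in the NKT-like cells, at 276 and 419 CPM (1030 and 1805 UMIs, ratio 1.52, 1.40 to 1.64), while CD8 memory cells held 256 and 234 CPM (ratio 0.913, 0.813 to 1.03). Ccl4 in CD4 cells went the other way, at 295 CPM (486 UMIs) and 176 CPM (346 UMIs), a ratio of 0.597 (0.518 to 0.686). Its share of thinned CD4 cells was 9.84% and 9.96%, and the UMIs per positive cell were 3.27 and 1.96, so the lower level came with fewer UMIs in a similar share of cells. In CD8 naive cells Ccl4 was low but higher in the IPA library, at 61.8 CPM (60 UMIs) and 135 CPM (136 UMIs), a ratio of 2.18 (1.60 to 3.01). B cells held Ccl4 at 63.7 and 109 CPM, a ratio of 1.72 (1.56 to 1.89). The CD8 naive values thus lay near the B cell level, and the intervals of the ratios overlap.

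**Figure D1:**
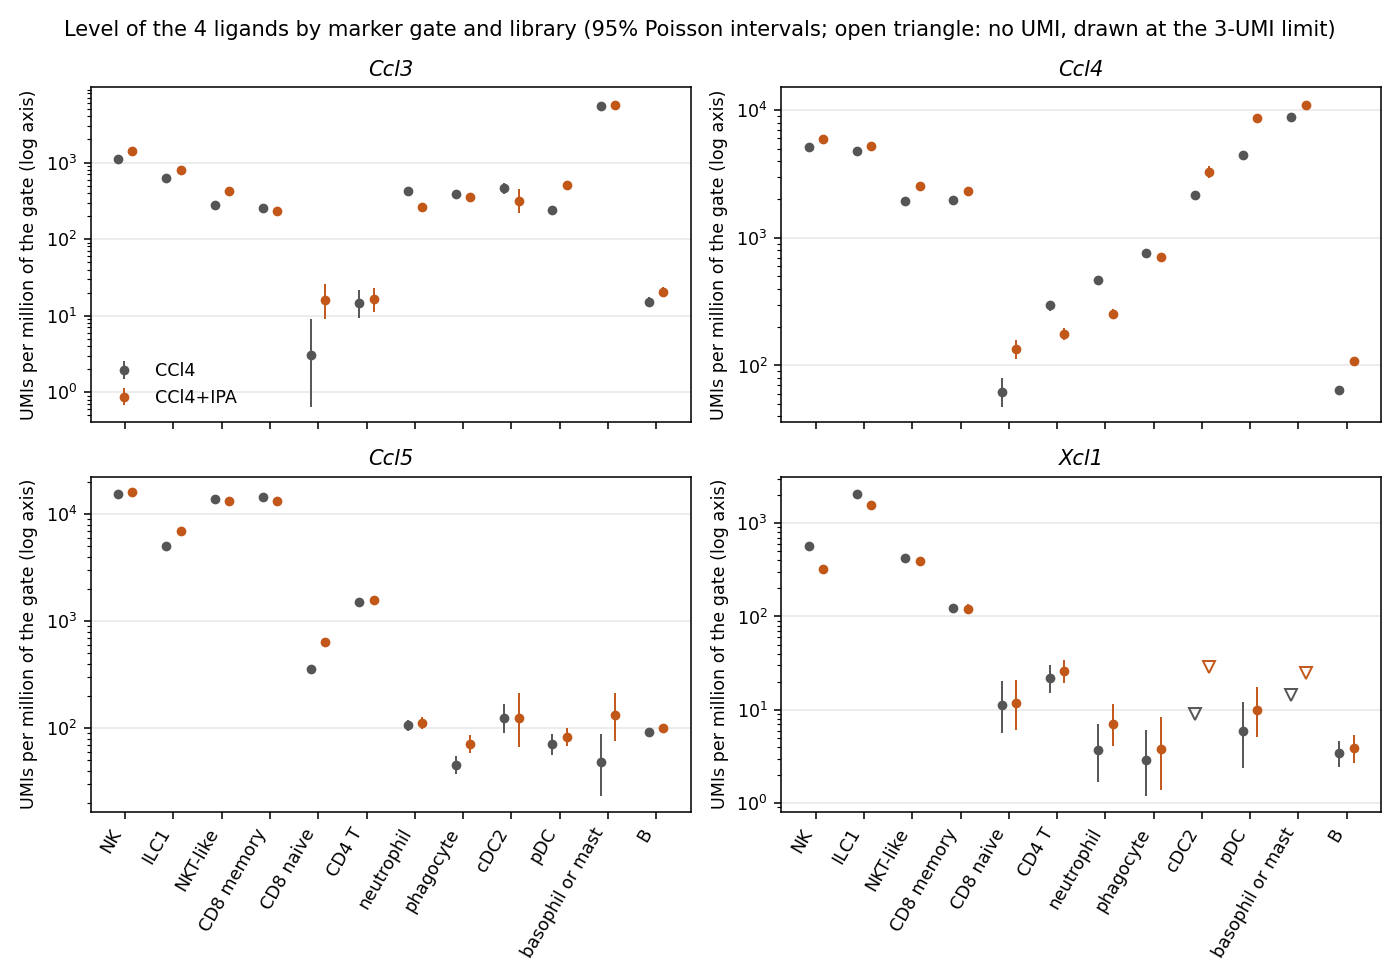
Level of each ligand (y axis, UMIs per 1000000 UMIs of the gate, log axis) in 12 gates (x axis) of the CCl4 (grey) and IPA (orange) libraries, with 95% Poisson intervals; open triangles mark gates without a UMI. Of the gates shown, Ccl5 and Xcl1 are highest in lymphocyte gates, while Ccl3 and Ccl4 are also read in neutrophils, phagocytes, pDC and basophils or mast cells, where Ccl4 reached 8869 and 10872 CPM.

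In the neutrophil gate Ccl3 measured 425 CPM (1027 UMIs, 399.5 to 452) in CCl4 and 259.7 CPM (586 UMIs, 239 to 282) in IPA cells, a ratio of 0.611 (0.551 to 0.677). Ccl4 measured 469 CPM (1132 UMIs, 442 to 497) and 255 CPM (575 UMIs, 234 to 276), a ratio of 0.544 (0.491 to 0.602). For both genes the 2 intervals lie apart, and the log2 ratios of -0.71 and -0.88 are opposite in sign to the gate's median of 0.18. Thinned shares separate the pair. Ccl3 was detected in 17.4% of CCl4 neutrophils (134 of 768, 14.8 to 20.3) and 11.2% of IPA neutrophils (103 of 917, 9.26 to 13.5). For Ccl4 the shares were 13.4% (103 cells) and 13.5% (124 cells), but a positive cell held 4.89 thinned UMIs in CCl4 neutrophils and 2.10 in IPA neutrophils. B cells held Ccl4 in 4.95% and 8.97% and Ccl3 in 1.25% and 1.46%. The B cell share of Ccl4 thus lay closer to the neutrophil share in the IPA library. Whether it comes from free RNA or from the B cells themselves was not tested. In the B gate 785 and 955 UMIs were Ccl4 and 1146 and 878 Ccl5. All analysed cells held 52603 and 65620 of Ccl4 and 128518 and 148871 of Ccl5. The 10% of neutrophils with the most held 84.8% and 96.2% of the thinned Ccl3 UMIs and 94.8% and 87.7% of the Ccl4 UMIs. With so few positive cells this largely follows from the shares above. In T cells the same measure was 100% for Ccl3 in both libraries. Phagocyte markers (6 genes) summed to 4354 and 3428 CPM in the neutrophil gate, and 6 neutrophil markers to 182827 and 171126 CPM. Erythroid markers (4 genes) summed to 72.0 and 450.2 CPM and T cell markers (4 genes) to 12.4 and 43.0 CPM. The part of these cells in the difference was not tested. Left without the highest cell of each library, the log2 ratios were -0.73 and -0.90.

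Before scaling, phagocytes differed between the libraries by less than counting error for both genes. The log2 ratios of Ccl3 (-0.10, -0.26 to 0.05) and Ccl4 (-0.09, -0.20 to 0.01) nonetheless lay below the gate's median gene at 0.17. Ccl3 measured 386 CPM (920 UMIs) and 359 CPM (565 UMIs), a ratio of 0.930 (0.836 to 1.03), and Ccl4 754 CPM (1798 UMIs) and 706 CPM (1112 UMIs), a ratio of 0.937 (0.868 to 1.01). Cells with at least 5 UMIs of the complement genes C1qa, C1qb and C1qc, a macrophage trait, numbered 64 and 8. They held Ccl3 at 328 CPM (83 UMIs) and 489 CPM (11 UMIs), a ratio of 1.49 (0.717 to 2.81). Their median depth was 1948 and 1987 UMIs, against 7883 and 6393 in the other phagocytes. Their median mitochondrial share was 0.068% and 0.027%, against 2.73% and 1.33%. Whether these barcodes hold intact cells was not tested. Hepatocyte markers (5 genes, 4 and 5 of them detected) summed to 9.23 CPM in the phagocyte gate of the CCl4 library and 2580.4 CPM in the IPA library, and neutrophil markers to 2889 and 347 CPM; their part in the values was not tested.

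Basophils or mast cells and pDC also held Ccl3 and Ccl4. Basophils or mast cells, 51 and 34 cells, held Ccl3 at 5508 and 5647 CPM (1149 and 682 UMIs, ratio 1.03, 0.931 to 1.13) and Ccl4 at 8869 and 10872 CPM (1850 and 1313 UMIs, ratio 1.23, 1.14 to 1.32). These cells were 0.509% and 0.336% of all cells and held 12.1% and 6.42% of all Ccl3 UMIs. The pDC, 207 and 223 cells, held more of both genes in the IPA library. Ccl4 measured 4488 CPM (5304 UMIs) and 8672 CPM (10403 UMIs), a ratio of 1.93 (1.87 to 2.00), and Ccl3 242 CPM (286 UMIs) and 506 CPM (607 UMIs), a ratio of 2.09 (1.81 to 2.42). Ccl4 was detected in 70.1% and 81.2% of thinned pDC, with 5.35 and 9.13 UMIs per positive cell. Neutrophil markers summed to 3897 and 174 CPM in this gate, and their part was not tested. With the NK receptor gene Klrd1, also read in dendritic cells here, left out of the innate panel, which returns cells to this gate, the log2 ratio of Ccl4 was 0.80 in place of 0.95 and that of Ccl3 1.00 in place of 1.06.

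**Figure D2:**
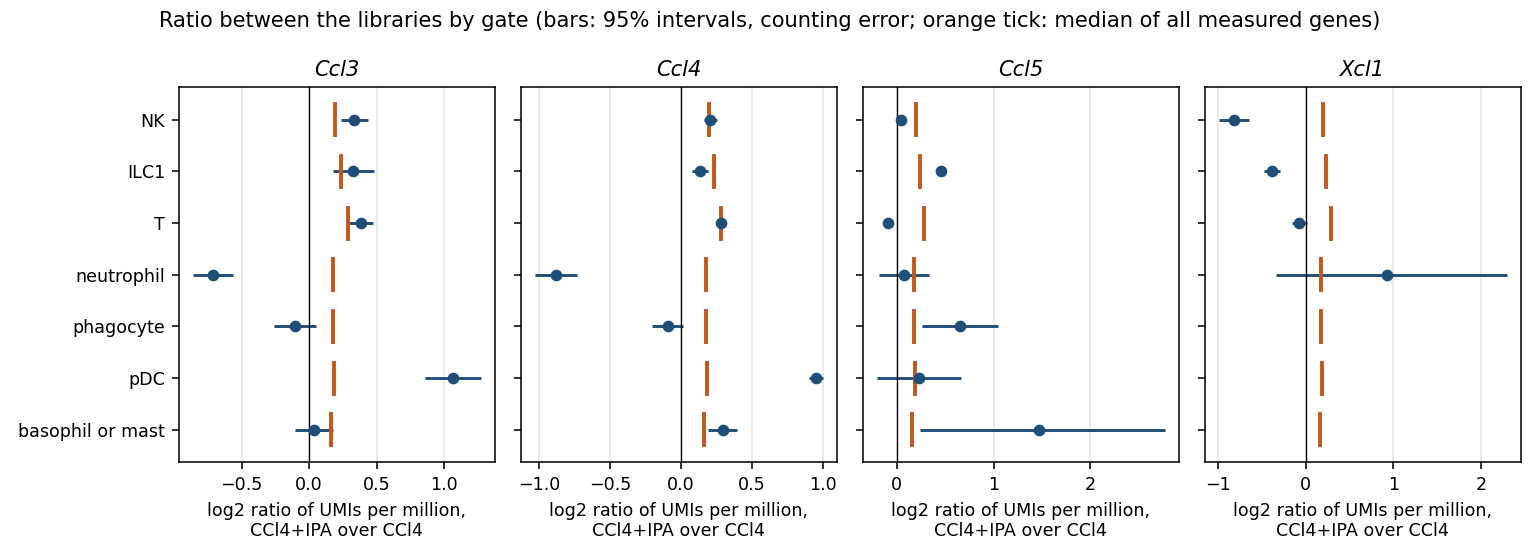
Log2 ratio of CPM, IPA over CCl4 (x axis), for each ligand in 7 gates (y axis); points carry 95% intervals from counting error, and orange ticks mark the median of all measured genes of the gate. Ccl3 and Ccl4 lie left of 0 in neutrophils (-0.71 and -0.88) and right of the ticks in pDC (1.06 and 0.95), and Xcl1 lies left of 0 in NK (-0.81) and ILC1 (-0.38).

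The balance of Ccl3 and Ccl4 differed widely between gates, and in the 7 gates plotted it differed less between the libraries. Of the UMIs of the pair, Ccl3 made up 47.6% (45.4 to 49.7) and 50.5% (47.6 to 53.4) in neutrophils, 38.3% and 34.2% in basophils or mast cells and 33.8% and 33.7% in phagocytes. The share was 18.0% and 19.3% in NK, 11.6% and 13.1% in ILC1, 11.6% and 12.4% in T cells and 5.12% and 5.51% in pDC. In B cells it was 19.3% and 15.6%. Other gates differed more between the libraries. In type 2 conventional dendritic cells, a gate of 46 and 18 cells, the share was 17.5% (15.0 to 20.2) and 8.87% (6.19 to 12.2). It rested there on 151 and 33 Ccl3 UMIs. The cluster where this gate's panel stood highest held 488 and 153 cells, so the gate is small. The share was 21.1% (18.6 to 23.7) and 13.2% (11.7 to 14.9) in innate cells assigned neither to NK nor to ILC1, and 4.71% and 8.47% in CD4 cells. The order of these 7 gates was the same in both libraries apart from ILC1 and T, which lay together at 11.6% in the CCl4 library.

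Within single cells the pair tended to be detected together. In ILC1, Ccl4 was found in 92.3% and 92.8% of thinned cells with Ccl3 and in 56.4% and 61.4% of those without. In T cells the shares were 76.9% and 77.5% against 26.1% and 28.7%. The gap was narrower within finer T cell gates. CD8 memory cells stood at 78.7% and 78.5% against 46.9% and 50.7%, and NKT-like cells at 79.2% and 81.1% against 41.4% and 46.6%. In neutrophils the shares were 37.3% (50 of 134 cells) and 22.3% (23 of 103) against 8.36% and 12.4%, so the overlap was smaller in the IPA library. All cells of a gate come from 1 library, so these shares describe the libraries and are no replicate of a condition.

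Xcl1 had its highest level in ILC1 in both libraries and was lower in the IPA library in ILC1 and in NK cells. ILC1 held 2064 CPM (1601 UMIs, 1964 to 2167) and 1581 CPM (2856 UMIs, 1524 to 1640), a ratio of 0.766 (0.720 to 0.815). NK cells held 571 CPM (666 UMIs, 529 to 617) and 325 CPM (524 UMIs, 298 to 354), a ratio of 0.569 (0.506 to 0.639). In both gates the intervals lie apart and the direction is opposite to the gate's median gene. T cells held 192 and 183 CPM (ratio 0.953, 0.897 to 1.01), with NKT-like cells at 427 and 395 CPM and CD8 memory cells at 122 and 121 CPM. The log2 ratio in the T gate, -0.07 (-0.16 to 0.02), also lay below that gate's median gene at 0.29. Neutrophils (9 and 16 UMIs), phagocytes (7 and 6 UMIs) and B cells (42 and 34 UMIs) held between 2.94 and 7.09 CPM, and basophils or mast cells and type 2 conventional dendritic cells none. At 3 UMIs, the limit a count of 0 allows, basophils or mast cells could hold up to 14.4 and 24.8 CPM.

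The share of ILC1 with Xcl1 was alike while that of NK cells was lower: 64.7% (99 of 153, 56.6 to 72.3) and 63.4% (289 of 456, 58.8 to 67.8) of thinned ILC1, and 24.3% (72 of 296, 19.5 to 29.6) and 17.7% (85 of 479, 14.4 to 21.5) of NK cells, where the intervals overlap. B cells stood at 0.266% and 0.475%. Positive ILC1 held 2.95 and 2.44 thinned UMIs, and positive NK cells 2.35 and 1.53. In the NK gate 1 CCl4 cell held 31 thinned UMIs of Xcl1, against at most 5 in an IPA cell. Without the highest cell of each library the log2 ratio in NK was -0.61 in place of -0.81. It was -0.42 with clusters in place of gates, -0.50 with the marker minimum doubled and -1.14 where NK cells had to lack every ILC1 marker, and it was below 0 under each of the 13 alternatives.

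Xcl1 against Ccl5 sets the innate gates apart. Xcl1 was 28.9% (27.7 to 30.1) of the UMIs of this pair in CCl4 ILC1 and 18.5% (17.9 to 19.1) in IPA ILC1. In NK it was 3.53% and 1.99%, and in T cells 2.13% and 2.17%. The change in ILC1 combines a lower level of Xcl1 and a higher level of Ccl5. Because there were 156 and 466 ILC1, the gate held a larger part of each ligand's UMIs in the IPA library even where the level per cell was lower: ILC1 held 32.5% of the CCl4 and 43.9% of the IPA Xcl1 UMIs, and the NK gate 13.5% and 8.06%. Of all Ccl5 UMIs, T cells held 72.8% and 65.1%, and of all Ccl4 UMIs ungated cells of several panels held 31.7% and 17.9%.

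**Figure D3:**
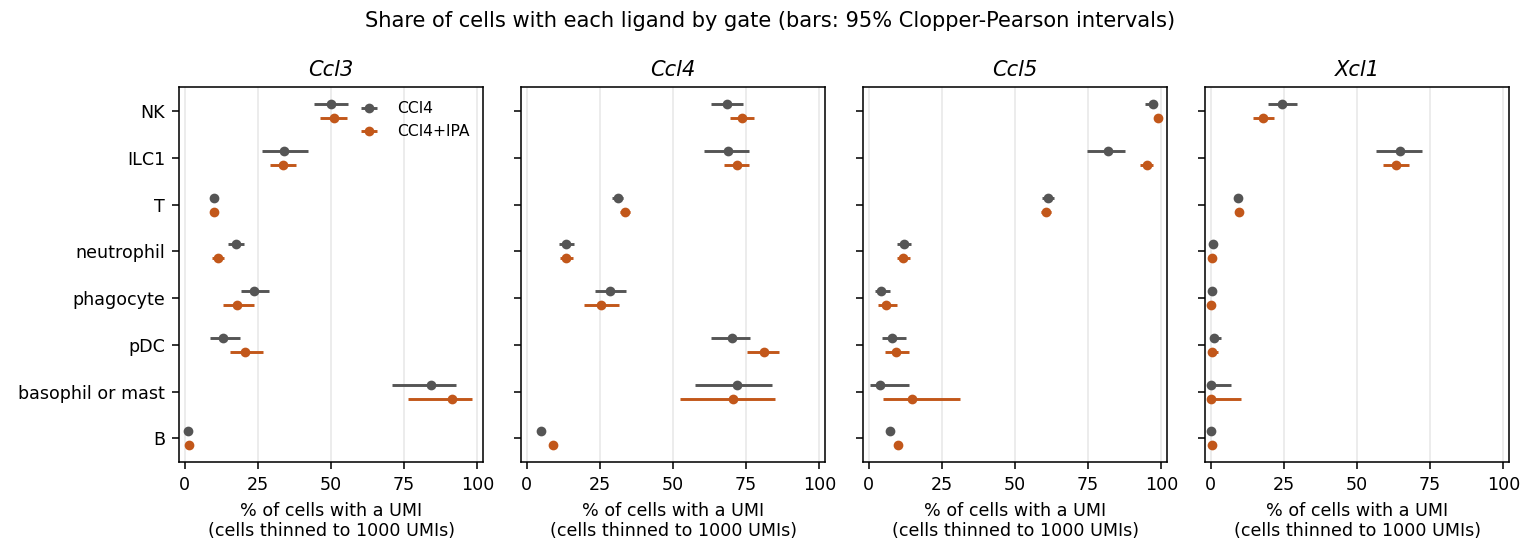
Percent of cells with at least 1 UMI of each ligand after thinning to 1000 UMIs (x axis) in 8 gates (y axis) of the CCl4 (grey) and IPA (orange) libraries, with 95% Clopper-Pearson intervals. Ccl5 marks nearly all NK cells (97.0% and 98.7%), Xcl1 is found in most ILC1 (64.7% and 63.4%), and the B gate is shown for comparison.

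**Figure D4:**
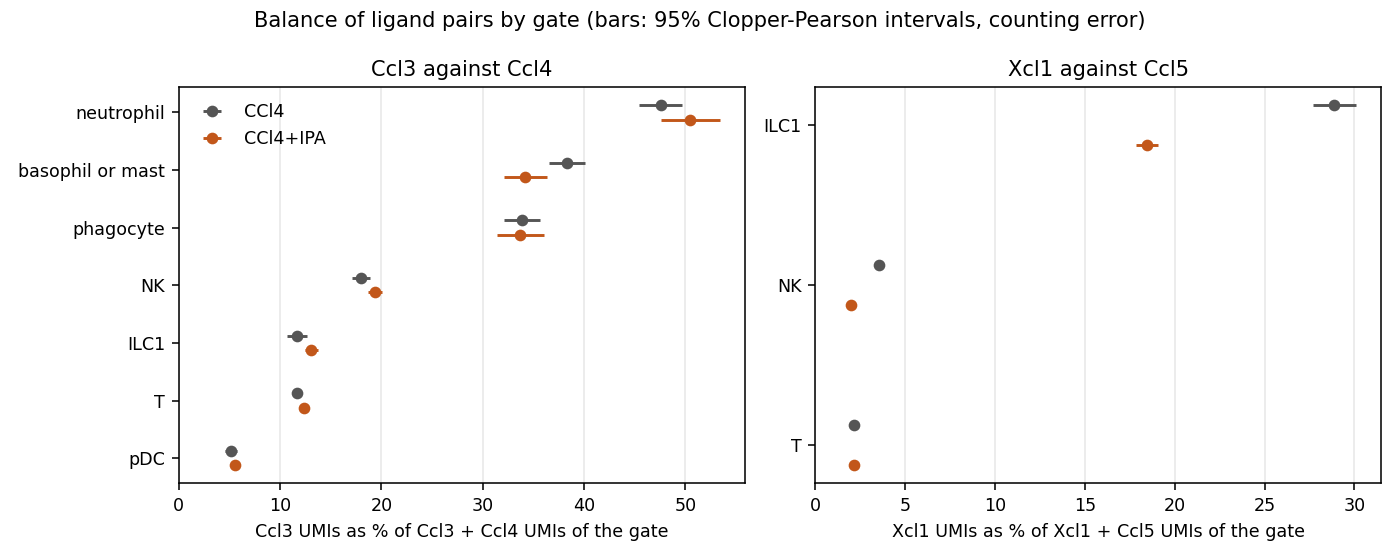
Share of Ccl3 among Ccl3 and Ccl4 UMIs in 7 gates (left) and of Xcl1 among Xcl1 and Ccl5 UMIs in 3 gates (right), x axes in percent, with 95% Clopper-Pearson intervals. The Ccl3 share runs from 5.12% in pDC to 47.6% in neutrophils of the CCl4 library, and the Xcl1 share of ILC1 is 28.9% for CCl4 and 18.5% for IPA.

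Xcr1, the only receptor among the 5 genes, was nearly confined to a few cells. Not 1 UMI was found in the NK, ILC1 or neutrophil gates of either library, which allows up to 2.57 and 1.86 CPM in NK, 3.87 and 1.66 CPM in ILC1 and 1.24 and 1.33 CPM in neutrophils. T cells held 5 and 10 UMIs, phagocytes 2 and 0, and B cells 5 and 3. The cDC1 gate, with 22 CCl4 and 12 IPA cells, held 25 UMIs in 7 cells and 34 UMIs in 4 cells, or 54.5 CPM (35.2 to 80.4) and 192 CPM (133 to 268), a ratio of 3.52 (2.04 to 6.16). Of the 34 UMIs, 20 came from 1 cell, and without the highest cell of each library the log2 ratio was 1.16 in place of 1.82. As a mean over cells it was 0.38. The gate's other cDC1 markers, 5 genes kept out of the gating, were higher with Xcr1: they summed to 972 and 2725 CPM, with Irf8 at 510 and 1467, Naaa at 235 and 677 and Batf3 at 52.3 and 203 CPM. A larger part of cDC1 in the gate and more Xcr1 RNA per cDC1 cannot be told apart here. The same 5 markers summed to more in the pDC gate, 3519 and 4276 CPM, mostly through Irf8 at 3472 and 4211 CPM. Wdfy4, Naaa and Batf3 were higher in the cDC1 gate than in pDC. Albumin RNA was found in 9 of 22 and 5 of 12 cells of the cDC1 gate, and hepatocyte markers (3 and 2 of 5 detected) summed to 6067 and 2951 CPM. Phagocyte markers (6 genes) summed there to 12814 and 5930 CPM, mostly through Apoe at 12403 and 5095 CPM. Without Cadm1 in the panel 14 and 8 cells remained, 3 and 1 of them with albumin RNA, and the Xcr1 ratio was 3.23 (1.87 to 5.65). Of the other Xcr1 UMIs, 22 and 32 lay in ungated cells that met several panels.

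Past a ratio of 1.5 in either direction, few members stood out from all genes of their gate, and the direction matters for the reading, since more genes were higher than lower in the IPA library. In NK, 0 of 4 measured members were higher and 1, Xcl1, was lower, where 18.7% and 4.15% of 8803 genes were higher and lower. After scaling by the gate's median ratio these shares were 10.9% and 8.07%, and Xcl1 was still the 1 member lower. In ILC1 0 of 4 were higher and 0 lower, beside 22.8% and 4.06% of 8849 genes. Scaled, the shares were 11.7% and 9.38%, and Xcl1 passed as lower. In T cells none of 4 passed in either direction, beside 17.8% and 3.28% of 13216 genes, or 6.49% and 6.39% scaled. In neutrophils 2 of 4, Ccl3 and Ccl4, were lower, where 3.88% of 8086 genes were, and 1, Xcl1 with 9 and 16 UMIs, was higher, where 16.3% were. Scaled, the same members passed, beside 6.88% lower and 10.3% higher. In phagocytes 1 of 3, Ccl5 at its background level, was higher and 0 were lower, beside 19.6% and 6.95% of 9554 genes. Scaled, none of 3 passed, beside 12.6% and 10.4%. In pDC 2 of 3, Ccl3 and Ccl4, were higher and 0 lower, beside 19% and 5.24% of 8628 genes, and the same 2 passed once scaled, beside 10.5% and 9.21%.

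Of the receptors, Ccr1 was read mainly in neutrophils, at 654 and 760.4 CPM (ratio 1.16, 1.09 to 1.25), and at 53.7 and 55.9 CPM in phagocytes (ratio 1.04, 0.784 to 1.38). In T cells it rested on 36 and 66 UMIs (ratio 1.66, 1.09 to 2.57). Ccr3 rested on 9 and 23 UMIs in neutrophils (ratio 2.74, 1.22 to 6.72). Among 11 other CC ligands, Ccl6 measured 1533 and 2086 CPM in neutrophils (ratio 1.36, 1.30 to 1.42) and 695 and 1081 CPM in phagocytes (ratio 1.56, 1.45 to 1.67). At far lower levels it was also higher in NK (5 and 24 UMIs, ratio 3.47, 1.30 to 11.6) and T cells (56 and 120 UMIs, ratio 1.94, 1.40 to 2.72). Ccl1 in T cells rested on 34 and 3 UMIs (ratio 0.0800, 0.0157 to 0.254). Ccl2, the monocyte attractant, measured 97.3 and 76.9 CPM in phagocytes (ratio 0.790, 0.629 to 0.988).

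Cytokines released by the same lymphocytes did not share 1 direction. Of 9 on the list, 6 were measured in NK, 3 past 1.5-fold higher and 1 lower, with a median log2 ratio of 0.62 beside 0.19 for all genes, of which 18.7% were called higher and 4.15% lower. Csf2 rested on 1 and 24 UMIs (ratio 17.4, 2.83 to 714), Fasl measured 148 and 241 CPM (ratio 1.62, 1.35 to 1.95), and Ifng, interferon gamma, 779.9 and 813 CPM (ratio 1.04, 0.957 to 1.14). Tnf was lower, with 44 and 35 UMIs (ratio 0.575, 0.358 to 0.917). In ILC1 8 were measured, 4 higher and 1 lower (median 0.50 beside 0.23, where 22.8% and 4.06% of all genes were called), with Ifng at 389 and 588 CPM (ratio 1.51, 1.33 to 1.72) and Tnf at 159 and 98.0 CPM (ratio 0.618, 0.488 to 0.784). In T cells all 9 were measured, 2 higher and 0 lower (median 0.18 beside 0.29), near the 17.8% and 3.28% of all genes. Tnf and Xcl1 were thus both lower in NK and in ILC1.

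The median of 16 genes induced early on cell activation or stress lay above that of all genes in each gate. The list includes the heat shock genes Hspa1a and Hspa1b, which were the 2 lower in pDC. In NK 5 of 16 passed 1.5-fold higher and 0 lower (median 0.50 beside 0.19), in ILC1 6 and 1 (0.45 beside 0.23), in T cells 2 and 0 (0.33 beside 0.29), in neutrophils 0 and 0 (0.34 beside 0.18), in phagocytes 2 and 0 (0.33 beside 0.17) and in pDC 10 and 2 (0.77 beside 0.19). Of all genes 18.7% were called higher in NK, 22.8% in ILC1, 17.8% in T cells, 16.3% in neutrophils, 19.6% in phagocytes and 19% in pDC, so the counts in T cells, neutrophils and phagocytes lay below the share of all genes. The pDC values stood highest: Atf3 measured 75.3 and 359 CPM (ratio 4.77, 3.79 to 6.06), Nr4a1 151 and 465 CPM (ratio 3.07, 2.59 to 3.65) and Tnfaip3, an inhibitor of NF-kB signalling, 129 and 368 CPM (ratio 2.86, 2.38 to 3.47). The heat shock gene Hspa1a was lower there, at 127 and 32.5 CPM (ratio 0.256, 0.175 to 0.366). In the neutrophil gate, where Ccl3 and Ccl4 were lower, none of these genes passed in either direction. Of 14 transcription factors of effector lymphocytes, 3 were higher and 0 lower in NK, 3 and 1 of the 13 measured in ILC1 and 0 and 0 in T cells. In NK and ILC1 this is about the share of all genes called higher (18.7% and 22.8%), so the counts say nothing about the list. Eomes, the NK factor that is also in the NK panel, measured 402 and 669.9 CPM in NK (ratio 1.67, 1.496 to 1.86), and Tbx21 197 and 228 CPM (ratio 1.16, 0.978 to 1.37).

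Across the 14 finest gates with at least 20 cells in each library (28 values, log2 of CPM plus 10), the gene most like Ccl3 among 13890 was Ccl4 (Pearson r = 0.91), followed by Cd244a, Plek, Tln1 and Fcer1g (0.86 to 0.89). For Ccl4 it was Ccl3, then Padi2 (0.90), Cd7 (0.89) and Rgs1 (0.87). Ccl5 was closest to Ifng (0.98), Tbx21 (0.97), Fasl and Nkg7 (0.96), and Xcl1 to the NK receptor genes Klrc1 (0.98), Klrk1 (0.98) and Klrc2 (0.97). The points share libraries and depth, so the values are descriptions. With a pseudocount of 1 CPM 3, 5, 4 and 4 of the 5 genes nearest to Ccl3, Ccl4, Ccl5 and Xcl1 were the same. The cDC1 gate had too few IPA cells to enter, so no neighbours of Xcr1 are given.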

How the data were processed

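The authors deposited, per sample, a gene by barcode matrix of unnormalised UMI counts, which the file headers credit to Cell Ranger 7.1.0 and which used mm9 per the submitters' processing notes. Libraries were 10x Genomics 3′ V3, per the labels' protocols. Most gene identifiers are GENCODE ones, so no coordinates of the files' build are printed; barcode calling and the use of intronic reads are not given in the sources used here. Barcodes with at least 500 UMIs, 300 genes and under 20% mitochondrial UMIs were kept, and Scrublet, run per library, called 278 and 331 doublets, which were left out. The median mitochondrial share was 3.53% and 1.78%.

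A cell entered a gate when it held at least 2 or 3 UMIs of a marker panel, and a cell that met panels of different lineages stayed ungated, except that T cells with innate markers are NKT-like. Innate cells went to NK or ILC1 by the larger of 2 panel sums. UMIs were summed per gate and library. CPM has exact Poisson intervals, ratios exact conditional binomial intervals and shares exact Clopper-Pearson intervals, all at 95%. No test was run, as there are no replicates. A measured gene had at least 20 UMIs over both libraries in a gate, and called means a ratio of at least 1.5. Genes at 3 or fewer UMIs in both libraries get no ratio, and a 0 is bounded by 3 UMIs. The ratio and its interval were run on simulated independent Poisson counts, the model the interval assumes. UMIs clumped in single cells were not simulated, so the check says nothing of that spread.

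All 5 members are named in each gate that matters, and for likeness genes are taken from the 5 with the highest correlation. The plan was to name at most 4 genes per list and gate, from the largest and smallest ratios. Some named genes depart from it. In ILC1 Ifng (1.51) is named but Il2 (4.51) is not, and in NK Tbx21 (1.16) is named but Rela (1.80) is not. Members and lists were chosen with earlier results of these data known. Alternatives were 8 planned and 5 added after seeing the data. Clustering and doublet calls used scanpy 1.11.5 with igraph 0.11.9 and scikit-learn 1.9.0, intervals scipy 1.17.1, and tables and plots pandas 2.3.3, numpy 2.4.6 and matplotlib 3.10.9, all under Python 3.11.15 with a seed of 1. A result on an item withheld here is not reported.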

Additional observations from a re-analysis of the deposited data

Results flagged for a closer look

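For 3 ligands the ratio lay on opposite sides of 1 in different gates, with both intervals clear of 1; the differences between gates were not tested. The log2 ratio (IPA over CCl4) of Ccl3 was 0.38 in T cells and -0.71 in neutrophils, a difference of 1.09. That of Ccl4 was 0.28 in T cells and -0.88 in neutrophils, a difference of 1.16; after scaling by the median gene of each gate it was 0.00 in T cells and -1.05 in neutrophils. That of Ccl5 was 0.65 in phagocytes and -0.09 in T cells, a difference of 0.74, but the phagocyte level (45.3 and 71.1 CPM) lay below that of B cells (93.0 and 100.5 CPM).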

How the results depend on the processing

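The 18 ratios of a ligand in a main gate were recomputed under 13 alternatives, and 171 of the log2 values stayed within the main value's counting interval; 56 lay outside it and 7 turned the direction of a ratio whose interval excluded 1. Of the ratios whose interval included 1, Ccl3 and Ccl4 in phagocytes (main -0.10 and -0.09) and Ccl5 in neutrophils (main 0.08) also changed sign under some alternatives. The log2 ratio of Ccl3 and Ccl4 in neutrophils and of Xcl1 in NK, ILC1 and T cells stayed below 0, and that of Ccl3 in NK, ILC1 and T cells and of Ccl5 in ILC1 above 0, under all 13. Scaled by the median ratio of all genes, Ccl3 was 0.14 in NK, 0.09 in ILC1, 0.10 in T, -0.89 in neutrophils and -0.28 in phagocytes, Ccl4 0.01, -0.10, 0.00, -1.05 and -0.27 in the same order, Ccl5 -0.16 in NK, 0.22 in ILC1 and -0.38 in T, and Xcl1 -1.01, -0.62 and -0.35. With abundant gene groups (mitochondrial, ribosomal, haemoglobin, immunoglobulin, S100a8 and S100a9) left out of the total, Ccl3 was 0.16 in NK, 0.12 in ILC1, 0.16 in T and -0.27 in phagocytes, Ccl4 0.04, -0.07, 0.06 and -0.26, Ccl5 -0.13, 0.25 and -0.32 in NK, ILC1 and T, and Xcl1 -0.98, -0.59 and -0.30. As a mean over cells, Ccl3 was 0.21 in T, 0.07 in phagocytes and, outside the main gates, -0.08 in B cells in place of 0.40, Ccl4 0.22 in T, Ccl5 0.36 in ILC1, -0.12 in T, -0.40 in neutrophils and 0.23 in phagocytes, and Xcl1 -0.29 in ILC1 and -0.29 in T. With the marker minimum doubled, Ccl3 was 0.10 in phagocytes, Ccl4 0.14 in NK, Ccl5 -0.06 in NK, 0.54 in ILC1, -0.08 in T and 1.24 in phagocytes, and Xcl1 -0.50 in NK. With Leiden clusters in place of gates, Ccl4 was 0.07 in ILC1, 0.19 in T, -1.14 in neutrophils, 0.32 in phagocytes and, outside the main gates, -0.69 in cDC1 in place of 1.83, Ccl5 -0.05 in NK, 0.38 in ILC1 and -0.82 in phagocytes, and Xcl1 -0.42 in NK and -0.31 in T. Chosen after seeing the data were 5 alternatives. Without the highest cell of each library Ccl4 was 0.26 and Xcl1 -0.61 in NK. With a strict split of NK and ILC1, Ccl4 was 0.20 in ILC1 and Xcl1 -1.14 in NK. With Klrd1 left out of the innate panel, Ccl4 was -0.35 in phagocytes and Ccl5 0.01 in NK and 0.05 in phagocytes. Without a cluster of 553 CCl4 cells and 1 IPA cell (median 1047 UMIs, markers of many classes), Ccl5 was 0.54 in neutrophils. Leaving Cadm1 out of the cDC1 panel moved none of the 18. For changes other than those in scaling or in the cells entering, the cause was not tested. Doublets kept, mitochondrial UMIs under 10% and at least 1000 UMIs a barcode also moved none of the 18. Without thinning 36 of 40 shares of cells lay outside the thinned share's interval. No paired analysis was possible because each group has 1 library. Few UMIs limit Xcr1, Xcl1 in myeloid gates and the C1q-high phagocytes.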
